A study of Sus scrofa with 22 samples.

Results

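Of 25749 genes in the authors' deposited table of group means, 32 were high in the late trophectoderm of the pig embryo and low in all groups outside the trophectoderm, by a rule on levels. A gene was taken when its mean reached 2 in trophectoderm of embryonic day 13 (E13) or E14 and stayed at or under 0.7 in each of the 31 groups of cells outside the trophectoderm, the trophectoderm columns being 8. The rule sets no limit on earlier trophectoderm, and some members, such as TMEM79, were present there from E6. Each deposited value averages log2(CPM/10 + 1) over the cells of a group. CPM are a cell's counts scaled to the same total in every cell, so a cell at 2 has 30 CPM and a cell at 0.7 has 6.25 CPM. Well-known genes of the conceptus (CYP11A1, CYP17A1, CYP19A1, HSD17B1, IFNG, GATA2, GATA3, CDX2 and PTGS2) were left out by name, and none of them met both limits. The members were thus selected on their measured levels at E13, at E14 and outside the trophectoderm, and these levels are given as a description without a test.

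The trophectoderm is the outer epithelium of the blastocyst and the forerunner of the fetal side of the placenta. In pigs the blastocyst hatches, changes from a sphere to a long filament within a short time, and attaches to the uterine surface without invading it. During elongation the trophectoderm makes oestrogens, interferons and other products that reach the mother, takes up nutrients from the uterine secretion, and starts to make pregnancy-associated glycoproteins, which are aspartic proteinase relatives of the trophoblast.

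The study sequenced polyadenylated RNA of single cells with a modified Smart-seq2 protocol in 20 libraries of pre-implantation pig embryos (E0 to E14) and in 2 libraries of pgEpiSC, stem cell lines from the E10 epiblast, labelled pgEpiSC_low and pgEpiSC_high. The labels give no genotype, strain, sex or treatment, and do not say how many embryos a library holds, so the spread between libraries may be in part technical. The cell names give the library but not the day or cell type, and the authors' groups were recovered from their deposited means. The trophectoderm held 184 cells in 14 libraries: 75 cells at E6, 14 at E7, 23 at E8, 2 at E9, 16 at E10, 9 at E12, 34 at E13 and 11 at E14. Library totals ran from 7415760 to 39405309 counts, and the median trophectoderm cell had 351543 counts at E6, 180004 at E13 and 336390 at E14. The 96 cell barcodes were each used in more than 1 library, and no cell column was a duplicate of another.

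The E14 values rest almost wholly on 1 library. Of the 11 E14 trophectoderm cells, 10 (90.9%) came from library P12 and 1 from library P11. Without the cells of P12 the rule found 88 genes, of which 18 were among the 32. Without the cell of P11 it found 34, all 32 included, and it found the same 32 when the E13 cells of P9, P10, P18 or P19 were left out. With E13 alone in place of E13 or E14, 4 of the 32 remained, so the list is chiefly one of E14 trophectoderm in P12.

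The cells were compared with markers of their label. All 9 trophectoderm markers (CDX2, GATA2, GATA3, TFAP2A, TFAP2C, KRT7, KRT8, KRT18 and DAB2) had counts in every trophectoderm sum of at least 5 cells and in the P11 cell, a sum being the counts added over the cells of a day in a library. Together they summed to 3249 CPM in the P11 cell and 3375 CPM in P12 at E14, the lowest of these sums, against 4473 to 8257 CPM from E6 to E13. The keratin KRT8 was at 871 and 730.4 CPM at E14 against 1537 to 2669 CPM at E13, and KRT18 at 655 and 275 CPM against 926.5 to 2141 CPM. Other markers of that list were higher in P12: GATA2 at 497 CPM, GATA3 at 542, TFAP2A at 263 and KRT7 at 642, each above all 4 E13 sums. TFAP2C and DAB2 were below all 4 there, and CDX2 lay among them. For the P11 cell, CDX2, GATA3 and TFAP2C were above all 4, and TFAP2A and KRT7 below. In the P11 cell the hypoblast and endoderm markers summed to more than the trophectoderm markers did, and the authors' grouping of that cell was kept. Both E14 sums held more RNA of some genes of other lineages than the E13 sums. AFP, a yolk sac product, was at 1914 CPM in the P11 cell and 257 CPM in P12, against at most 0.596 CPM in the 4 E13 sums. TTR was at 856 and 90.5 CPM against at most 16.7 CPM at E13, and the collagen gene COL3A1 at 252 and 122 CPM against at most 7.15 CPM. These RNAs were also present in the E14 ectoderm cells of the same libraries. There AFP was at 258 CPM in P11 and 139 CPM in P12, TTR at 55.4 and 49.0 CPM, and COL3A1 at 180 and 175 CPM. The whole list of 8 hypoblast and endoderm markers summed to 4241 CPM in the P11 cell and 809.6 CPM in P12, against 505 to 1477 CPM at E13, and the 6 mesoderm markers to 1127 and 838 CPM against 400.4 to 909 CPM. Most of the mesoderm sums was HAND1, counted below among the trophectoderm transcription factors. HAND1 was at 717 and 592 CPM, against 392 to 877 CPM at E13. The 4 measured epiblast markers summed to 494 and 832 CPM against 1011 to 1428 CPM, nearly all of it DPPA5, and NANOG was at 7.32 CPM in the P11 cell and 0 in P12. TBXT was at 0 in both E14 sums, as were the leukocyte gene PTPRC and the uterine gene PGR. The 5 measured uterine markers summed to 0 in P11 and 40.4 CPM in P12, against 0 to 6.92 CPM in the E6 to E13 sums. In P12 this was SPP1 at 31.4 CPM and ACP5 at 8.98 CPM, against at most 5.96 and 2.31 CPM from E6 to E13. The source of these RNAs in P12 was not tested. The 6 measured blood and immune markers summed to 22.0 CPM in P11 and 28.2 CPM in P12. Blood and immune markers were highest in P5 at E10, at 269 CPM (HBB 212 CPM), against 54.6 CPM in P6, the other E10 library. The part of the keratin, AFP, TTR and COL3A1 levels in the members' E14 values was not tested.

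Cells outside the trophectoderm held low levels of the members at E14. In P12 the 74 ectoderm cells, a group of another lineage, summed to 139 CPM over the 32 members, against 43.7 CPM in the 27 ectoderm cells of P11. The mesoderm cells summed to 255.5 CPM in P12 (5 cells) and 56.4 CPM in P11 (3 cells), and the definitive endoderm cells to 183 CPM in P12 (2 cells) and 103 CPM in P11 (13 cells). The median member had a count in 44.6% of the P12 ectoderm cells (median depth 301990 counts a cell) and in 11.11% of those of P11 (260310 counts a cell). Summed levels in the E14 trophectoderm of P12 were 4738 CPM. The rule asked for low levels in E14 ectoderm and high levels in late trophectoderm, so the gap between these 2 groups follows from the selection. The cause of the difference between the ectoderm cells of the 2 libraries was not tested.

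All 32 members reached 2 at E14, and 4 of them (ENSSSCG00000023987, PPAG3, ENSSSCG00000003521 and RDH16) also did so at E13. The median member stood at 2.69 at E14, 0.76 at E13, 0.44 at E12, 0.14 at E10 and 0.019 at E6, while the median of all deposited rows stayed between 0.053 at E6 and 0.16 at E14. With E9 and its 2 cells left aside, E14 was the highest day for 31 members, TMEM79 being the exception; GALNT4 had a mean of 2.16 at E9 against 2.09 at E14. The course was not a steady climb: 12 members were lower at E13 than at E12. Just inside the limit on trophectoderm levels lay GPRIN3 at 2.02 and GALNT4 and SPAM1 at 2.09, and just outside it lay ENSSSCG00000013090 at 1.95, STYK1 at 1.84 and PARP9 at 1.83. On the other limit RDH16 reached 0.66 outside the trophectoderm and ENSSSCG00000023987 also 0.66, while GDF11 (0.71), PTHLH (0.72) and PRSS22 (0.73) fell just outside.

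**Figure D1:**
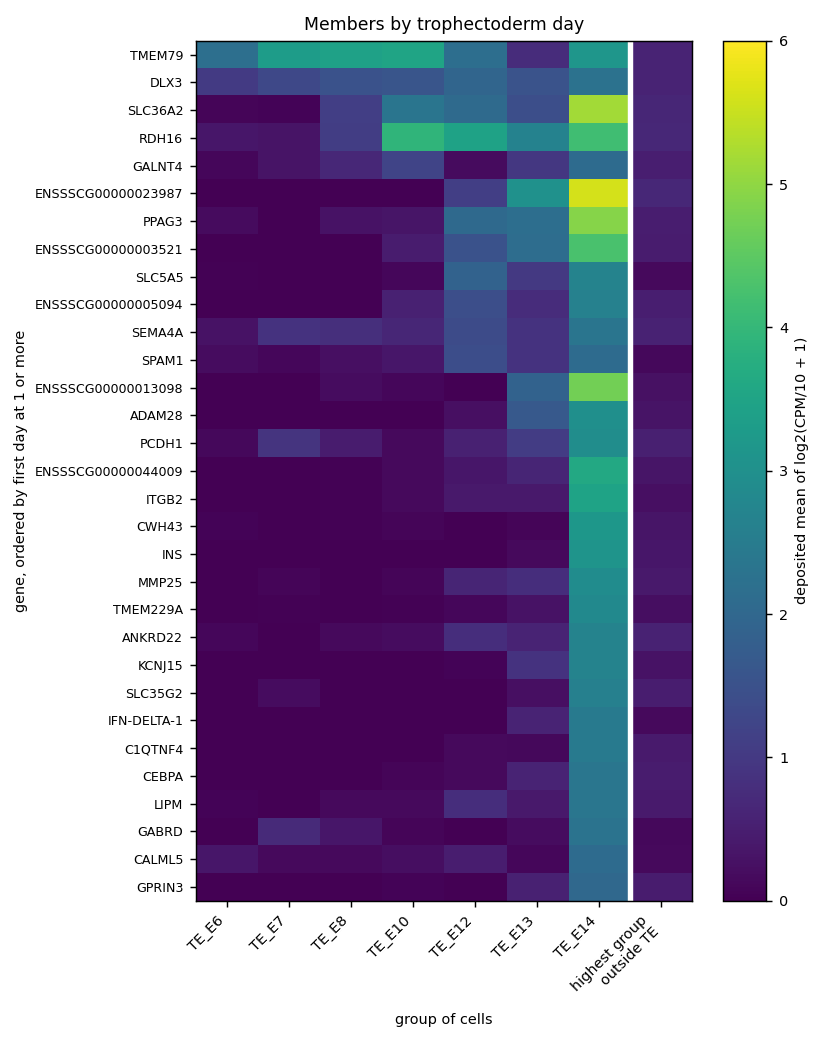
Deposited mean of log2(CPM/10 + 1) for 31 of the 32 members (rows, ordered by the first day at 1 or more) in trophectoderm (TE) of each day and, in the last column, in the highest group outside it; E9, with 2 cells, is not drawn. TMEM79 and DLX3 are present from E6, SLC36A2 and RDH16 from E8, and 16 members reach 1 at E14 only among the days shown.

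Onset was read as the first day with a mean of at least 1, which is 10 CPM in a single cell. By that measure 2 members (TMEM79 and DLX3) were on at E6, none was added at E7, 3 were added at E8 (SLC36A2 and RDH16 among them), 1 at E10 (GALNT4), 7 at E12, 3 at E13 (ENSSSCG00000013098, ADAM28 and PCDH1) and 16 at E14. The 7 of E12 were PPAG3, SLC5A5, SEMA4A, SPAM1 and the unnamed ENSSSCG00000023987, ENSSSCG00000003521 and ENSSSCG00000005094. The number on by E10 depended on the measure: it was 6 at a mean of 1, 10 at 0.5, 3 at 2 and 17 when a count in 25% of the cells was asked for. E9 was left out of this order for its 2 cells, in which KCNJ15 had a mean of 1.09 and GALNT4 one of 2.16; counting E9 would put the onset of both there. E12 is a single library (P10, 9 cells), and 11 members were at exactly 0 at E6.

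The number of members detected in single cells was highest at E14, and unthinned it was lower at E13 than at E12. A cell had counts for a median of 3 members at E6 (lowest 0, highest 10), 4 at E7, 6 at E8, 7.5 at E10, 14 at E12, 12 at E13 (2 to 24) and 30 at E14 (20 to 32). With cells thinned to 35000 counts, so that depth was equal, and 2 shallower E6 cells and 1 E13 cell left out, the medians were 2 at E6, 5 at E10, 7 at E12, 8 at E13 and 27 at E14. The median member had a count in 38.2% of E13 cells and 90.9% of E14 cells, or 21.2% and 81.8% after thinning. Cells outside the trophectoderm had a median of 15 members in P12 (81 cells), 3 in P11 (43 cells) and 2 over all 1463. These levels outside give the background for a share of cells with a count. In 13 members all 11 E14 cells had a count, and the P11 cell lacked 6 members altogether.

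**Figure D2:**
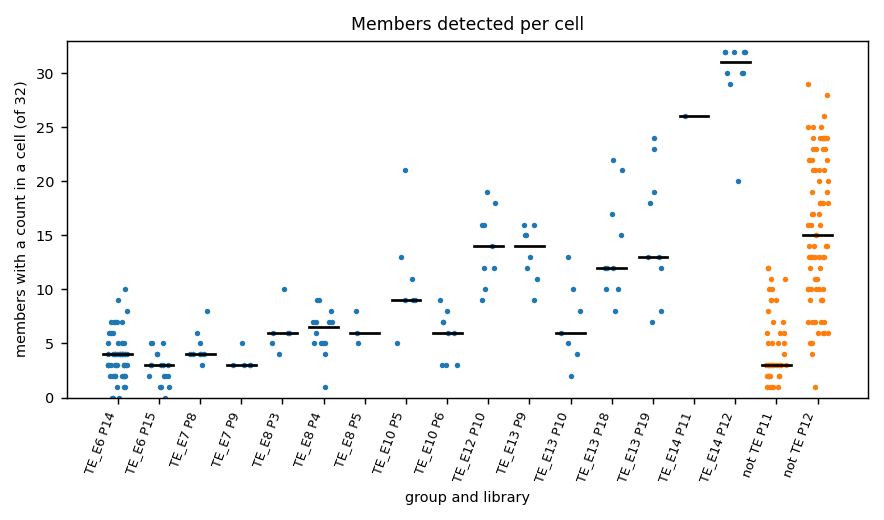
Number of the 32 members with at least 1 count in each cell (points), by trophectoderm group and library (blue) and for the cells of libraries P11 and P12 outside the trophectoderm (orange); black lines are medians and cells are not thinned. E14 cells of P12 have a median of 31 and the other cells of that library 15, while E6 cells stay at or under 10.

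The earliest members were genes of epithelia. TMEM79, a membrane protein of differentiating epidermis, was at 56.5 and 44.4 CPM in the 2 E6 sums, 111 and 146 CPM at E7, 177, 153 and 89.6 CPM at E8, and 181 and 117 CPM at E10. It was lower later: 44.3 CPM in the single E12 library, and at E13 36.2 CPM in P9, 44.1 in P10, 2.38 in P18 and 8.41 in P19, before 47.6 CPM in the P11 cell and 102 CPM in P12 at E14. Every E7, E8 and E10 sum lay above both E6 sums, and P18 and P19 were the lowest of all. A count of TMEM79 was present in 86.7% of the 75 E6 cells (95% exact interval 76.8% to 93.4%). TMEM79 overlaps GLMP on chr4:93762176-93768840, and GLMP had a mean of 3.60 at E6, 1.83 at E13 and 4.25 at E14; since the sources used here do not say whether strand was used in counting, reads of the pair cannot be told apart.

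DLX3, a homeobox transcription factor that mouse placenta and epidermis need, was present on every day. Its mean was 1.02 ± 1.08 at E6 (SD over 75 cells), 1.51 ± 1.20 at E8 (23 cells), 1.59 ± 1.05 at E10 (16 cells), 1.55 ± 1.08 at E13 (34 cells) and 2.26 ± 1.69 at E14 (11 cells). By library it was at 26.7 and 4.29 CPM at E6, at 42.7 and 28.5 CPM at E10, at 52.5, 16.2, 28.6 and 19.9 CPM in P9, P10, P18 and P19 at E13, and at 62.2 and 70.9 CPM at E14. The 2 E6 libraries lay further apart than the E10 libraries did. DLX3 lies at chr12:26177896-26183172, 16586 bases from DLX4. The transcription factor CEBPA, which drives differentiation in liver, fat and myeloid cells, came late: it was at 0 in both E6 sums, at 6.82, 0, 23.8 and 30.6 CPM in the E13 sums of P9, P10, P18 and P19, and at 135 and 45.5 CPM in P11 and P12 at E14.

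Among secreted products, the short type I interferon IFN-DELTA-1 of the pig trophoblast (chr1:201654500-201655595) had no count in any trophectoderm cell from E6 to E12. At E13 it was at 0.426 CPM in P9, 0 in P10, 31.6 in P18 (95% Poisson interval 23.6 to 41.3) and 69.6 in P19 (56.0 to 85.4). At E14 it was at 40.2 CPM in the P11 cell (20.1 to 72.0) and 72.2 CPM in P12 (63.0 to 82.2). P19 overlapped P12, so the 2 days did not separate by library. A count was found in 8 of 34 E13 cells (23.5%) and in 10 of 11 E14 cells (90.9%), of which 6 kept one at 35000 counts. It belongs to a family of near-identical genes and overlaps LOC106509142, so its reads are uncertain. The 0 of 9 E12 cells, all of library P10, allows a share of cells with a count of up to 33.6% (95% exact interval, for counting error only).

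INS, which encodes insulin, the hormone of pancreatic beta cells, was at 0 in every sum of E6, E7, E8, E10 and E12. It was at 5.44 CPM in the E9 library, where 1 of 2 cells held counts and neither did after thinning. It was at 0 in P9, P10 and P18 and 27.5 CPM in P19 at E13, where 2 of 34 cells carried it. At E14 it was at 165 CPM in the P11 cell (120 to 220.3) and 226 CPM in P12 (209 to 243). The E14 cells spread from 0 to 5.90 on the log2(CPM/10 + 1) scale, and their SD, 2.26, was the widest of the 32 members. Outside the trophectoderm of P12, INS stood at 6.05 CPM in ectoderm, 10.7 in mesoderm and 3.88 in definitive endoderm. The gene lies at chr2:1496842-1498052, 425 bases from IGF2, and the 2 do not overlap in RefSeq. The level of IGF2 is not given here, and the origin of the INS reads was not tested. C1QTNF4, a secreted protein of the C1q and tumour necrosis factor family, was at 0 in P9 and P10, 1.79 CPM in P18 and 12.2 CPM in P19 at E13, and at 0 in P11 and 95.3 CPM in P12 at E14. SEMA4A, a transmembrane semaphorin, was at 5.82 and 4.29 CPM at E6, 22.9 and 6.07 CPM at E7, 12.2, 12.5 and 32.4 CPM at E8, 5.77 and 15.8 CPM at E10, 27.8 CPM at E12, 8.82 to 23.8 CPM at E13, and 25.6 and 69.9 CPM at E14. Its sums at E7, E8 and E13 overlapped each other.

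The proteolytic group held an aspartic proteinase relative and metalloproteinases. PPAG3, a pregnancy-associated glycoprotein (chr2:10474866-10482943), was at 2.07 and 2.79 CPM at E6, 0 in both E7 sums and 3.46 and 4.75 CPM at E10. It was at 40.4 CPM at E12 and, at E13, at 32.4 CPM in P9, 36.7 in P10, 119 in P18 and 167 in P19. At E14 it was at 95.1 CPM in the P11 cell (62.1 to 139) and 400.0 CPM in P12 (378 to 423). All sums from E12 on exceeded all sums before it, and every E12 and E14 cell and 26 of 34 E13 cells carried a count. The family has near-identical copies, so reads of PPAG3 may be shared with them.

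ADAM28, a membrane metalloproteinase, was at 0 in E6, E7 and E10 sums and at 1.96 CPM at E12. At E13 it was at 28.6 CPM in P9, 1.47 in P10, 91.7 in P18 and 68.8 in P19, and at E14 at 76.8 CPM in P11 and 96.9 CPM in P12. MMP25, a matrix metalloproteinase of the cell surface, was at 0 in P9 and P10, 26.8 CPM in P18 and 35.2 CPM in P19 at E13, and at 234 CPM in the P11 cell and 88.2 CPM in P12. SPAM1, a hyaluronidase known from sperm, was at 22.7 CPM at E12 and ranged at E13 from 0 in P10 to 56.6 CPM in P19, against 10.98 CPM in P11 and 63.2 CPM in P12. SPAM1 overlaps LOC106506801, so its reads are uncertain. ADAM28 and MMP25 were both higher in P18 and P19 than in P9 and P10 at E13.

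Transport and channel genes followed different courses. SLC36A2, a proton-coupled transporter of small amino acids (chr16:71661946-71689464), was at 0.722 and 0.858 CPM at E6 and 0.816 and 0 CPM at E7. At E8 it was at 4.89, 33.1 and 24.8 CPM and at E10 at 8.65 and 119 CPM, with 47.0 CPM at E12. At E13 P9 held 1.28 CPM, P10 8.82, P18 78.0 and P19 75.7, and at E14 P11 held 58.5 CPM and P12 464 CPM. Every E8, E10 and E12 sum lay above every E6 and E7 sum, and P9 at E13 lay close to the E6 sums. The gene overlaps SLC36A3 in RefSeq, and SLC36A3 itself had means of 2.74 at E6 and 5.15 at E14, so reads of the pair are uncertain.

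SLC5A5, the sodium-iodide symporter, was at 53.7 CPM at E12, at 20.5, 29.4, 38.7 and 22.2 CPM in P9, P10, P18 and P19 at E13, and at 18.3 and 124 CPM in P11 and P12; the P11 cell lay under every E13 sum. SLC35G2, a solute carrier of the family of nucleotide-sugar transporters, was at 0 in P11 and 79.5 CPM in P12, against 0 to 29.0 CPM at E13; it overlaps STAG1, whose mean stayed between 1.07 and 2.20 in the trophectoderm. KCNJ15, an inwardly rectifying potassium channel, was at 0 in P9 and P10, 36.3 CPM in P18 and 55.8 CPM in P19, and at 58.5 CPM in P11 (33.5 to 95.1) and 74.4 CPM in P12 (65.1 to 84.6). GABRD, a subunit of the receptor for the transmitter GABA, had an earlier presence, at 7.75 and 18.2 CPM at E7 and 3.67 and 7.35 CPM in P3 and P4 at E8, was at 0 at E12, and reached 51.3 CPM in P12.

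**Figure D3:**
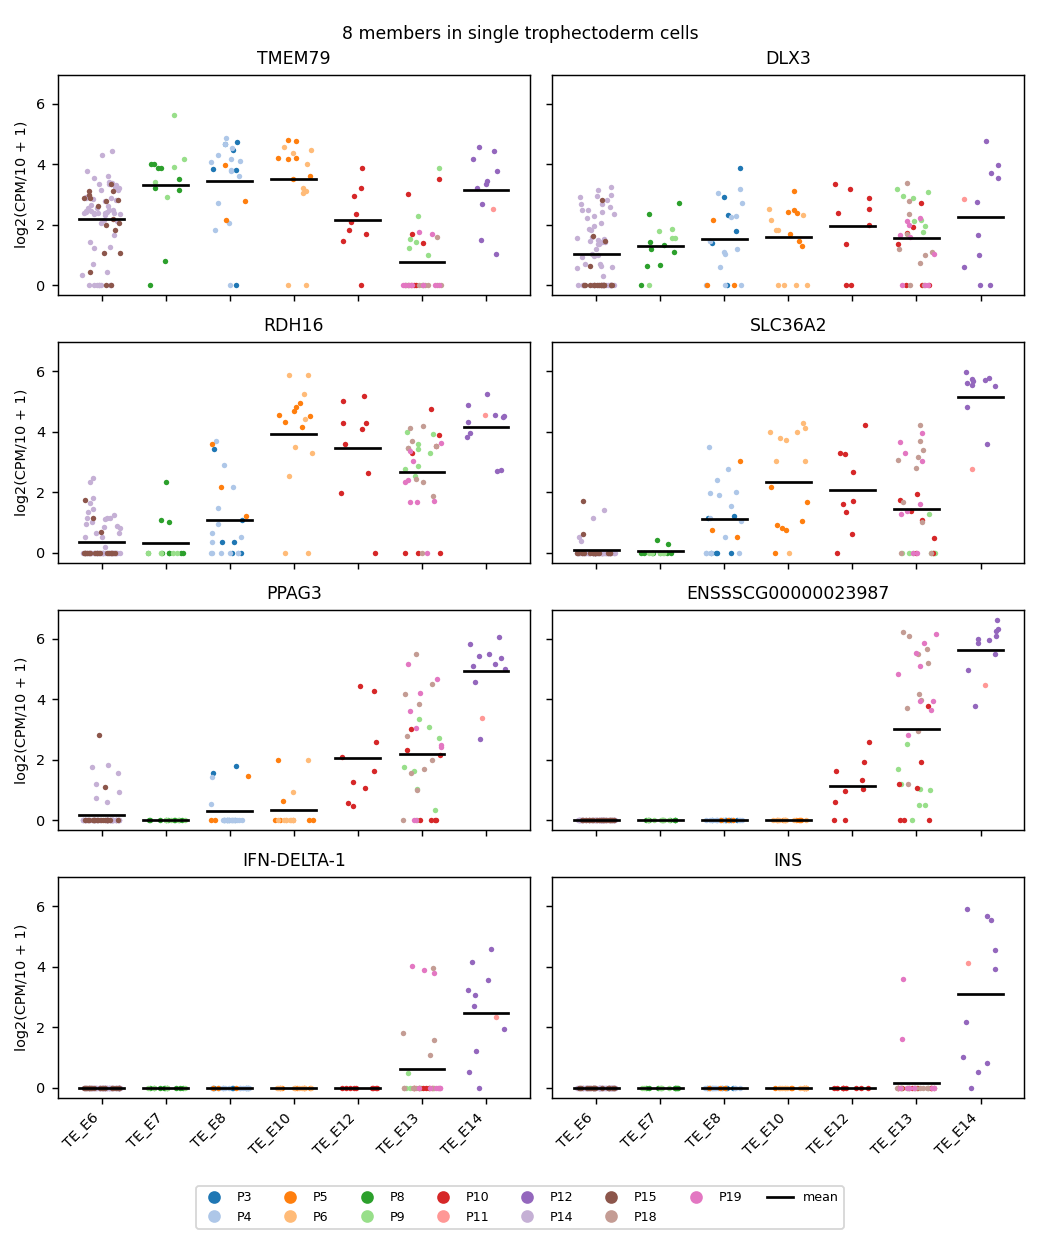
log2(CPM/10 + 1) of 8 members in single trophectoderm cells by day, coloured by library, with the mean as a black line; E9 is not drawn. RDH16 and SLC36A2 are present in most E10 cells, IFN-DELTA-1 and INS are at 0 in all E6 to E12 cells drawn, and the E14 points of P12 (purple) carry the E14 means.

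RDH16, a retinol dehydrogenase that turns retinol into retinal (chr5:22251751-22266801), differed most plainly between early days. It was at 6.18 and 2.57 CPM at E6, 3.26 and 0 CPM at E7, 9.17, 22.0 and 49.5 CPM at E8, and 237 and 269.8 CPM at E10. It stayed at 176 CPM at E12, at 97.7, 131, 88.7 and 62.7 CPM in P9, P10, P18 and P19 at E13, and at 223 and 201 CPM in P11 and P12 at E14. The E10 sums stood above all sums of E6, E7 and E8, and the E13 sums lay below them. A count of RDH16 was found in 32% of E6 cells and 87.5% of E10 cells, or 9.59% and 87.5% after thinning. SDR9C7, of the same enzyme family and 129 bases away, had a mean of at most 0.18 on any day.

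Other metabolic and glycan enzymes varied in their course. GALNT4, which starts O-linked glycosylation, was at 87.1 CPM at E9 (2 cells of P17), 19.6 and 16.6 CPM at E10, 1.96 CPM at E12, 13.6, 0, 22.0 and 39.8 CPM in P9, P10, P18 and P19 at E13, and 32.9 and 54.8 CPM in P11 and P12; it overlaps POC1B, which ranged from 0.60 to 2.18 over the trophectoderm days. CWH43, an enzyme of lipid anchors, was at 0 at E12, at or under 2.38 CPM at E13, and at 40.2 CPM in P11 and 123 CPM in P12, so both E14 sums lay above all E13 sums. LIPM, a lipase of the epidermis, was at 0 in P11 and 55.8 CPM in P12. LIPM overlaps ANKRD22 at chr14:100716038-100748916, all 37 trophectoderm cells with LIPM counts also held ANKRD22 counts, and in 27 of the 37 the 2 counts were equal. Reads of LIPM and ANKRD22 cannot be told apart, and the 2 may be 1 measurement.

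The adhesion genes took different courses. ITGB2, the shared chain of the leukocyte integrins, was at 0 in P9, 1.47 CPM in P10, 16.1 in P18 and 25.2 in P19 at E13, and at 110 CPM in P11 and 157 CPM in P12. Among the immune markers, PTPRC and CD3E were at 0 in both E14 sums, and PTPRC also in the E6 and E7 sums. CD14 was at 0 in P11 and 0.962 CPM in P12. LYZ was at 22.0 CPM in P11 and 26.9 CPM in P12, against 44.8 to 93.3 CPM at E13. The cellular source of ITGB2 RNA was not tested. PCDH1, a protocadherin of epithelia, was at 10.2 and 20.2 CPM at E7, 3.84, 10.3, 25.02 and 40.5 CPM in P9, P10, P18 and P19, and 157 and 76.0 CPM in P11 and P12. CALML5, a calmodulin-like protein of epidermis, was at 4.37 and 17.4 CPM at E6, and at E14 at 0 in P11 and 68.6 CPM in P12. In RefSeq ITGB2 overlaps LOC106508046 and CALML5 overlaps LOC106505211, so reads of both are uncertain. TMEM229A was at 3.66 CPM in P11 and 132 CPM in P12, and GPRIN3 at 10.98 CPM in P11 and 47.2 CPM in P12, with 75.7 CPM in P19.

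Of the 32 members 5 (15.6%) had no symbol, against 39.5% of all deposited rows. ENSSSCG00000023987 was at 0 in every sum from E6 to E10 and at 16.1 CPM at E12. At E13 it stood at 12.4 CPM in P9, 51.4 in P10, 387 in P18 and 420 in P19, and at E14 at 212 CPM in the P11 cell and 612 CPM in P12, so the P11 cell lay below P18 and P19. ENSSSCG00000013098 was at 5.97 and 1.47 CPM in P9 and P10, 148 in P18 and 175 in P19, then 87.8 CPM in P11 and 415 CPM in P12.

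The E13 libraries differed from each other. Summed over the 32 members, P9 held 426 CPM, P10 398, P18 1377 and P19 1728. P19 was the highest of the 4 for 19 members and P18 for 7, and P9 and P10 for 3 each, whereas over the 18831 genes with a count the shares were 22.8% for P19, 27.1% for P18, 29.0% for P9 and 21.0% for P10. P9 and P10 lacked 8 and 13 members, and P18 and P19 lacked 2 each. The same libraries held cells of other days: in P10, 22 members were lower at E13 than at E12 and 4 higher, where 34.3% of 17496 genes were higher at E13. In P9, 21 members were higher at E13 than at E7 and 3 lower, where 62.1% of genes were higher. Depth differed too: the P10 sum held 680494 counts at E13 and 2550588 at E12. The P9 sum held 2345005 counts at E13 and 494250 at E7. At E13 the P18 sum held 1678904 counts and the P19 sum 1308144. A member at a low level is more easily missed in a shallow sum, and the part of depth in these numbers was not tested.

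The E14 libraries were set beside the E13 libraries as a description, since the rule used both days. P12 at E14 was above all 4 E13 sums for 31 members, GPRIN3 being the exception, and the single cell of P11 for 11 members. Over all genes with a count, the share above all 4 was 31% of 20297 for P12 and 24.4% of 19116 for P11. On the single-cell scale the P11 cell lay within the range of the 10 P12 cells for 23 members, above it for 2 (MMP25 and CEBPA) and below it for 7. INS, CWH43, ITGB2 and MMP25 were above every E13 sum in both E14 libraries, while C1QTNF4, SLC35G2, CALML5, LIPM and ANKRD22 were among those at 0 in P11.

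**Figure D4:**
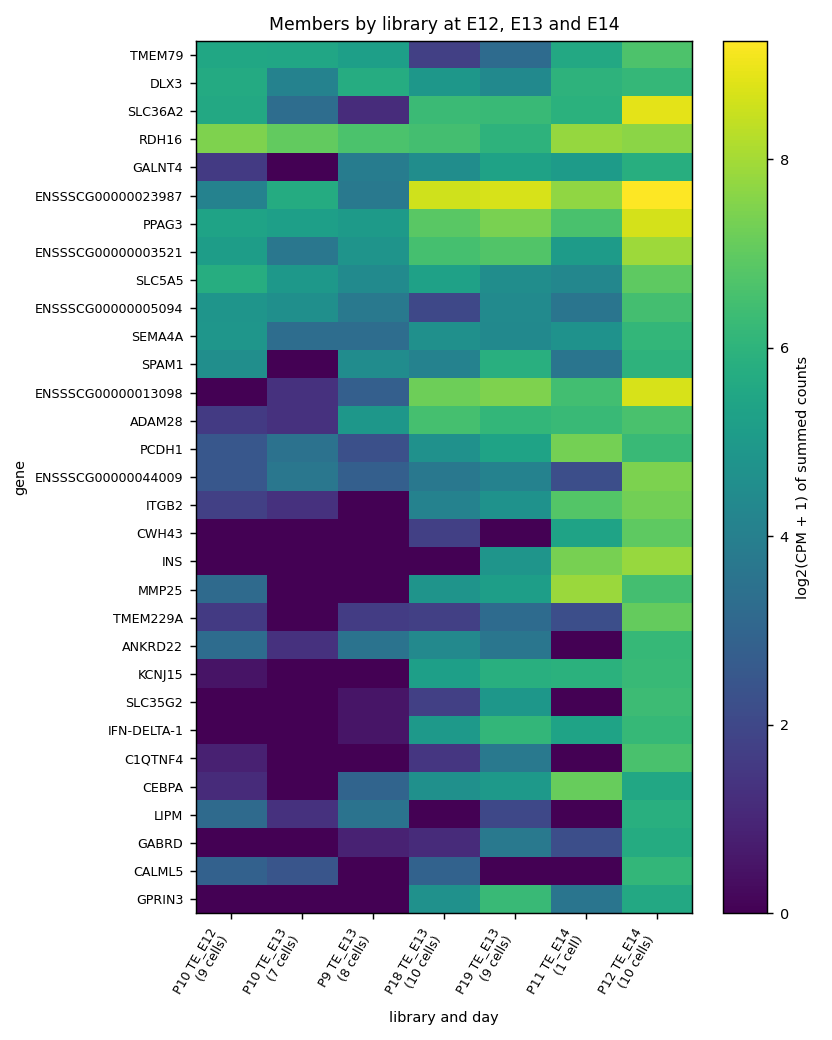
log2(CPM + 1) of counts summed over the trophectoderm cells of a library for 31 of the 32 members at E12, E13 and E14, with the number of cells in brackets. P18 and P19 carry more of the members than P9 and P10 at E13, and P12 carries all members drawn, while P11, with 1 cell, lacks several.

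Tests were made between days the rule had not used. Library sums of at least 5 cells were compared with edgeR's quasi-likelihood test over 23182 genes at an adjusted p of 0.05, and all 32 members were among the genes tested. The filter on low counts used all groups. Members with no count on either day of a comparison were thus tested but could not pass. From E6 to E10, 1 member passed, RDH16, against 4.1% of all genes (476 genes higher and 474 lower). RDH16 rose by 5.55 ± 1.28 on the log2 scale (SE, 2 libraries a day, edgeR adjusted p = 0.00658). Leaving out the E6 library P14 gave 6.33 (edgeR adjusted p = 0.0599), leaving out P15 5.10 (0.142), and leaving out the E10 library P6 5.32 (0.0517), so the call was lost while the difference stayed large; without P5 it was 5.80 and passed (0.0107). In these fits a day has a single sum, which is assumed to vary like the other groups. SLC36A2 missed the threshold at 6.19 ± 1.97 (edgeR adjusted p = 0.0618). It passed with trophectoderm sums alone (0.004), with DESeq2 (0.00695) and without the filter on low counts (0.000108), but not with DESeq2's size factors in edgeR (0.0658) or with a library left out, where the edgeR adjusted p ran from 0.0755 without P5 to 0.448 without P6. Without P6 its log2 difference was 3.06.

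No member passed in the shorter steps. From E6 to E7 none of 32 did where 0.755% of genes were called, from E7 to E8 none where 0.0302% were, from E8 to E10 none where 0.134% were, and from E6 to E8 none where 1.16% were. Not all of the 32 could pass: 11 had a mean of 0 at E6, 18 at E7, 11 at E8 and 5 at E10. INS, IFN-DELTA-1 and ENSSSCG00000023987 had no count on any of these days. At an unadjusted p under 0.05 there were 3, 3, 5 and 3 of the 32 members in these steps, and 9 from E6 to E10. Over all 23182 genes tested there were 3590, 2043, 1620 and 2812, and 4940 from E6 to E10. The step of RDH16 from E8 to E10 was 3.92 ± 1.19 (edgeR adjusted p = 0.32), and that of TMEM79 from E6 to E10 was 1.24 ± 1.10 (edgeR adjusted p = 0.562). DLX3 differed by 0.88 ± 1.20 over E6 to E10 (edgeR adjusted p = 0.767). With 2 sums a day these intervals are wide, and a step that did not pass is not shown to be absent.

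Genes of 7 lists on trophectoderm functions gave the setting of the members between E6 and E10, where 4.1% of all genes tested were called. Of 21 steroid genes tested 6 were higher and 1 lower, among them CYP11A1, the side-chain cleavage enzyme, at 0 in E6 and 474 CPM at E10, and SULT1E1, the oestrogen sulfotransferase, from 207 to 1.08 CPM. Of 29 conceptus signals 5 were higher (IFNG, EREG, FST, WNT7A and IGF1) and 1 lower (IL6), and the list's member IFN-DELTA-1 was at 0 on both days. Of 35 transcription factors 4 were higher (HAND1, ARID3A, ISL1 and TP63) and 1 lower (ESRRG), and the member DLX3 was not among them. Of 140 proteases and inhibitors 5 were higher, including the cathepsins CTSL and CTSB, and 1 lower (CST3), a share of 4.29% that is close to that of all genes, with neither ADAM28 nor MMP25 among them. Of 323 solute carriers 23 were higher and 11 lower, with none of SLC36A2, SLC5A5 and SLC35G2. Of 38 keratin and junction genes 4 were higher (DSP, DSG2, PPL and ITGAV) and 0 lower, and of 22 interferon response genes 2 were higher (IFNGR1 and B2M) and 1 lower (IRF1). The lists' median log2 changes were 0.26 for steroid genes, 0.16 for signals, 0.46 for transcription factors, 0 for proteases and for solute carriers, 0.58 for keratins and junctions and 0.82 for interferon response genes, against 0 over all genes tested.

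Further members lay near each other on the RefSeq map of Sscrofa11.1. TMEM79 and SEMA4A were 96214 bases apart on chromosome 4, and TMEM229A and SPAM1 56328 bases apart on chromosome 18. The pairs did not share an onset day: TMEM79 was on at E6 and SEMA4A at E12, and TMEM229A was on at E14 and SPAM1 at E12.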

How the data were processed

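The deposited group means (unit recorded as other for the embryo groups, which share samples) are log2 values, the authors' mean over cells of log2(CPM/10 + 1) for 39 groups, and the deposited standard deviations are on the same scale. The count table holds the authors' deposited counts of 29214 pig genes and 92 spike-ins, which were left out, in 1647 cells. Per the submitters' processing notes, featureCounts 1.6.4, STAR 2.7.1a and UMI-tools were used with Sscrofa11.1, and no role is stated; whether molecules or reads were counted, and whether strand was used, are not given in the sources used here.

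Each cell's group was recovered by least squares of the deposited means on all cells; at least 93.44% of means and 99.92% of SDs then agreed within 0.001. Counts were summed per group and library (5 cells or more, except 1 in oocytes and 2 in zygotes and in 2C and 4C embryos), giving 67 sums. edgeR 4.0.16 in R 4.3.3 (filterByExpr, TMM, glmQLFit, Benjamini-Hochberg) was fitted to all, and tested on simulated counts. DESeq2 1.42.0 was an alternative. Intervals are exact Poisson or Clopper-Pearson at 95% and cover counting error alone.

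RefSeq names and coordinates of Sscrofa11.1 matched 27 members, 3 of them named by that table alone. The members and gene lists were chosen with earlier results of these data known. Named genes were the 20 members with a symbol and the highest E13 or E14 mean, the 10 highest at E6, members of a list, members past a test and the 2 highest without a symbol; other members were added after their values were seen. Levels of different genes were not scaled for length. Sums and ranks over different genes, such as the marker sums of the P11 cell, carry this limit. Promoter sequences were not used here. A single member is counted but not reported here by name.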

Additional observations from a re-analysis of the deposited data

How the results depend on the processing

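The list depended on its limits and on its columns: it held 11 genes at a limit of 3 in late trophectoderm, 12 at 0.35 and 98 at 1.4 outside it, and, as alternatives chosen after seeing the data, 4 with E13 alone and 32 to 88 with 1 library left out (88 without P12, 18 of them shared). Members on by E6, E8, E10, E12 and E13 were 2, 5, 6, 13 and 16; with a mean of 2 asked for they were 1, 1, 3, 4 and 6. With a mean of 0.5 they were 9 by E8, 10 by E10 and 25 by E13, and with a count in 25% of cells 5 by E6, 10 by E8, 17 by E10 and 21 by E12. The median share of E13 cells with a count went from 38.2% to 21.2% after thinning. Genes called from E6 to E7 (175) were 396 with DESeq2's size factors, 671 without a filter on low counts, 85 with trophectoderm sums alone, 1626 with DESeq2 and 10 (without P9) to 2169 (without P8) with a library left out. From E7 to E8 (7) they were 183 without a filter, 26 with trophectoderm sums alone, 608 with DESeq2 and 0 (edgeR without P4, 1285 at an unadjusted p under 0.05) to 1104 (without P8). From E8 to E10 (31) they were 159 without a filter, 178 with DESeq2 and 0 (edgeR without P3, 973 unadjusted) to 13 with a library left out. From E6 to E8 (268) they were 571, 176 and 883 without a filter, with trophectoderm sums alone and with DESeq2, and 67 (without P4) to 112 with a library left out. From E6 to E10 (950) they were 483 with trophectoderm sums alone, 2112 with DESeq2 and 279 (without P5) to 385. Members called from E6 to E10 (1) were 5 without a filter, 3 with trophectoderm sums alone, 3 with DESeq2 and 0 to 1 with a library left out. From E8 to E10 (0) there was 1 without a filter and 1 with trophectoderm sums alone, RDH16 each time, and from E6 to E8 (0) there were 2 without a filter. The causes were not tested. No paired analysis was possible because no pair of days compared shared 2 libraries. E12 had 1 library and gave no test, and a minimum of 10 cells a sum left no comparison with 2 sums on each side, so it was not run. Few cells at E14 and 2 sums a day limit every value.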
